A study of Mus musculus with 39 samples.

Results

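The genes described here encode the subunits of voltage-gated sodium, potassium and calcium channels and of their close relatives in the mouse gene nomenclature. They were chosen by symbol as the protein-coding genes whose names begin with Scn and a number, with Kcn (leaving out Kcnq1) or with Cacn, and whose mean count was 10 or more over the libraries kept. Of 133 such channel genes, 62 passed that count, out of 11472 genes tested and 53379 listed. The other 71 channel genes fell below it, 20 of them without a read in any library kept. Just inside the threshold were Kcnh2 (mean count 10.2), Kcnj9 (10.3) and Cacna2d2 (12.2), and just outside it were Kcnh3 (9.42), Kcnk5 (9.17) and Cacng2 (8.39).

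Neocortical tissue was dissected from mice on embryonic day (E) 13 or E16, dissociated and sorted by fluorescence, and the RNA of each pool was sequenced. Every embryo carried Emx1-Cre and both reporter cassettes for MADM (Mosaic Analysis with Double Markers) on chromosome 7 (MADM-7-GT and MADM-7-TG). Emx1-Cre drives recombination in progenitors of the dorsal telencephalon, and the background was mixed C57BL/6J, CD1 (strain label CD1). From each embryo green (GFP+), red (tdT+) and yellow (GFP+/tdT+) cells were sorted. In MADM, singly colored cells carry both copies of chromosome 7 from 1 parent, in opposite directions in green and red, whereas yellow cells carry 1 copy from each. The labels do not give the parental direction of a color, so green and red were used as colors only. There was no treatment, and 36 of 39 libraries were kept, 5 per color at E13 and 7 per color at E16, each from 200 to 400 sorted cells. Gene counts per library kept ran from 472924 to 5205788 (median 3452734), 3 counts equal 0.576 to 6.34 CPM (counts scaled to the library total), and all libraries name the same flow cell. Embryos of the 2 ages are different animals from different litters, so age cannot be told apart from litter or day of collection.

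Voltage-gated sodium channels open on depolarization and carry the upstroke of the action potential, voltage-gated potassium channels repolarize the membrane and set its firing pattern, and voltage-gated calcium channels couple depolarization to transmitter release and gene expression. Each consists of a pore-forming subunit and of auxiliary subunits that control its trafficking and gating. In the developing cortex, radial glia divide at the ventricle and produce projection neurons, which acquire sodium and potassium currents as they mature.

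Not all of these symbols stand for a voltage-gated pore. Of the 62 genes, 5 encode sodium channel pores and 2 sodium channel beta subunits. Among the potassium channel genes, 18 encode voltage-gated pores and 5 their auxiliary subunits, while 7 encode pores of the calcium- and sodium-activated families, 1 a beta subunit of the calcium-activated BK channel, 5 inward rectifiers and 3 two-pore-domain leak channels. The calcium channel genes comprise 7 pores, 3 alpha2delta subunits, 3 beta subunits and 3 gamma subunits, several of which act as transmembrane AMPA receptor regulatory proteins. Kcnu1 is counted among the activated families by sequence, although its channel is gated by voltage and pH and not by these ions. Inward rectifiers, two-pore-domain channels and the small-conductance (Kcnn) channels lack voltage gating, so the label describes the naming of the family rather than a single mechanism.

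The genes on which the comparisons turn are Cacna1e, which encodes the pore of the R-type calcium channel, Kcnab1, a cytoplasmic beta subunit of Shaker-type potassium channels, Kcnn3, a small-conductance calcium-activated potassium channel, and Cacna2d1, the alpha2delta-1 subunit that brings calcium channels to the membrane. Their 250 bases upstream of the transcription start, taken from RefSeq (GRCm38.p6), are shown because these genes had groups without overlap between libraries or embryos. Scn2a, also without overlap in the summed embryos, is not shown. Capitals mark GC boxes (GGGCGG on either strand), the binding sequence of Sp1-type factors. CAGCTG and CAGATG, the E-boxes bound by proneural factors, were also searched on both strands and are not in these 4 windows. Cacna1e lies at chr1:154725921-154726170 (minus strand), Kcnab1 at chr3:65108764-65109013, Kcnn3 at chr3:89519914-89520163 and Cacna2d1 at chr5:15934441-15934690 (all 3 plus strand).
Cacna1e: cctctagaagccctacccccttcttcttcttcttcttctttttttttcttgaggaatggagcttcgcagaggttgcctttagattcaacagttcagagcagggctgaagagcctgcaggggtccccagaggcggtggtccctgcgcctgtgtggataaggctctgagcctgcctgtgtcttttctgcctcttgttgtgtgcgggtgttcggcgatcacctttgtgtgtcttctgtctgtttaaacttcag
Kcnab1: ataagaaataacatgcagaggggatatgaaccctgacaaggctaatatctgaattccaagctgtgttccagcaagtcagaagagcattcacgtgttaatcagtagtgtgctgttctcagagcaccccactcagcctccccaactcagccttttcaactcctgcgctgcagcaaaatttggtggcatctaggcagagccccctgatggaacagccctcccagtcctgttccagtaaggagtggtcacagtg
Kcnn3: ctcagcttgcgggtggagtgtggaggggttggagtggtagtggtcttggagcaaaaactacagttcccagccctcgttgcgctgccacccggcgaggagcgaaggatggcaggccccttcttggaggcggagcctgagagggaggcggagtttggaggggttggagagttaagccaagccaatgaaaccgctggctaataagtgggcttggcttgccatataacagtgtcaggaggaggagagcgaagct
Cacna2d1: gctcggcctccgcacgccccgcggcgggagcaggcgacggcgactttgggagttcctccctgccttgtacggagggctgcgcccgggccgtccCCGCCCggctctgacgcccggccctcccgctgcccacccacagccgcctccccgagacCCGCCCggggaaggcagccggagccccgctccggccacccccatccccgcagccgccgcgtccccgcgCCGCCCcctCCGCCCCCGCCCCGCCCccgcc

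Only the Cacna2d1 window among these 4 holds GC boxes, with 6 matches, some of them overlapping. Upstream windows were found for 44 of the 62 genes, as 69 windows because some genes have several starts. GGGCGG was present in 40.6% of these 69 windows and in 32.7% of all 32851 windows. CAGCTG was present in 26.1% against 13%, and CAGATG in 11.6% against 14.4%. Kcnab1 has 3 starts in RefSeq, and the one shown is nearest to the outermost start in the Gencode annotation, at 370 bases. The single RefSeq start of Cacna1e lies 158581 bases inside the Gencode gene, so its window may not be the promoter used in these cells. The starts of Kcnn3 and Cacna2d1 coincide with the Gencode starts. A match of letters is a description and says nothing about binding.

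Levels between genes can be compared only per length, as RPKM (CPM divided by exon length in kb). On that scale the beta subunit gene Cacnb3 was highest, at 23.6 ± 16.1 RPKM (mean ± SD over 36 libraries), followed by Kcnn3 at 22.6 ± 30.8 and Scn3b, a sodium channel beta subunit, at 20.1 ± 21.9. Next came Kcnn2 (12.3 ± 11.3), Cacnb1 (9.08 ± 23.3) and Cacna2d1 (9.0 ± 6.47). The SD of Kcnn3, Scn3b and Cacnb1 exceeded their means, so the order of these neighbors is not resolved by these libraries. Leading genes of other classes were Scn8a among sodium pores (7.39 ± 6.13), which encodes Nav1.6, Cacng5 among gamma subunits (6.95 ± 12.3), Kcne1l among potassium channel auxiliary subunits (5.70 ± 7.74), the leak channel Kcnk1 (4.65 RPKM), the BK beta subunit Kcnmb4 (4.46 RPKM), the inward rectifier Kcnj3 (3.80 RPKM) and the N-type calcium pore Cacna1b (2.38 RPKM). Kcnmb4 and Kcnj3 share 31.5% and 31.1% of their exonic bases with other genes, so part of their counts may belong to those genes. Detection was sparse: 5 genes had a read in all 36 libraries, the median gene in 26, and 14 genes in fewer than 18.

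The channel genes together made up 0.0799% to 0.222% of gene counts in the 6 groups of age and color. Their summed level was 799 ± 165 CPM (SD, n = 5) in green cells at E13, with a lowest library at 636, a median of 765 and a highest at 1073. Red cells at E13 had 1029 ± 199 CPM (n = 5), from 718 to 1268 with a median of 1040. The 5 yellow libraries at E13 had 1424, 4010, 1374, 1589 and 1514 CPM, a mean of 1982 ± 1136. All 10 singly colored libraries at E13 therefore lay below all 5 yellow libraries.

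At E16 the summed level was 2151 ± 504 CPM in green cells (n = 7, from 1735 to 2851), 2004 ± 673 in red cells (n = 7, from 1400 to 3301) and 2219 ± 1004 in yellow cells (n = 7, from 1350 to 4222). Green libraries of E16 did not overlap with those of E13, and neither did red libraries, whereas the yellow libraries of the 2 ages overlapped. The 3 colors of E16 overlapped as well. Without the 7 libraries that the study left out, which include yellow replicate 2 of E13 (4010 CPM) and yellow replicate 7 of E16 (4222 CPM), the yellow means were 1475 ± 95.2 at E13 (n = 4) and 1885 ± 522 at E16 (n = 6), and the E16 red mean was 1668 ± 287 (n = 5). Kcnn3 alone carried part of the separation. Without it, the highest red library of E13 (1268 CPM) passed the lowest yellow library of that age (1235 CPM), while green and red of E13 stayed below those of E16 (957 against 1516 CPM in green, 1268 against 1341 CPM in red).

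**Figure D1:**
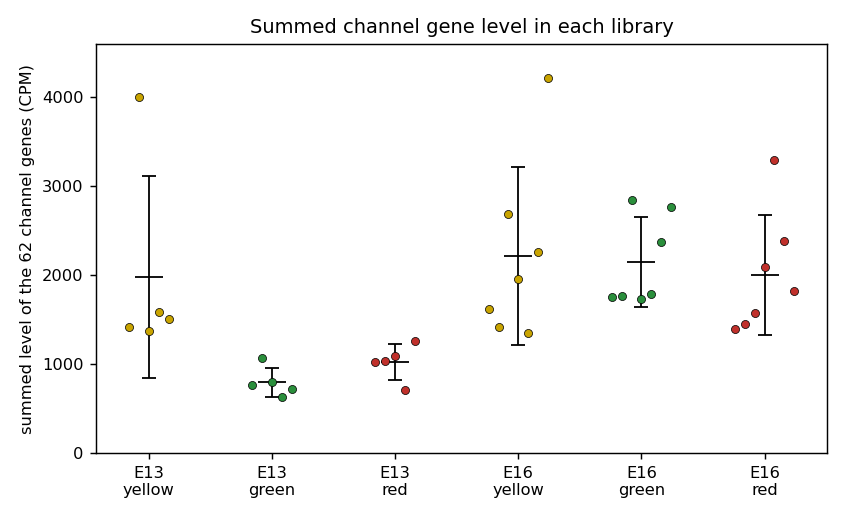
Summed level of the 62 channel genes (vertical axis, CPM) in each of the 36 libraries kept, by age and color. Points are libraries, with 1 library per embryo and color, the horizontal mark is the mean and the bar is 1 SD. The 10 singly colored libraries of E13, at 636 to 1268 CPM, lie below every other library.

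Within embryos, taken as libraries of 1 age with the same replicate number, the same order was seen. In the 4 embryos of E13 with all 3 colors, green and red were both below yellow in 4 of 4, by a mean of -1.06 (SD 0.61) on the log2 scale. In the 7 embryos of E16, green was below yellow in 2, red in 3 and both in 1, and the mean difference was -0.0093 (SD 0.54).

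In bulk pools, fewer cells of a type and less RNA per cell cannot be told apart, so the marker levels of the same libraries are given beside the channel genes. Radial glia markers (8 genes) summed to 785 to 1675 CPM in yellow cells at E13, 1935 to 3318 in green and 1759 to 2540 in red, without overlap between yellow and singly colored libraries. Intermediate progenitor markers (4 genes) likewise lay at 141 to 351 CPM in yellow and at 422 to 917 in singly colored cells. Projection neuron markers (8 genes) overlapped, at 3453 to 4915 CPM in yellow, 2033 to 4221 in green and 2757 to 4541 in red. At E16 radial glia markers overlapped between the colors (246 to 1751 in yellow, 992 to 3399 in green, 603 to 3843 in red), and projection neuron markers lay at 3903 to 7807 CPM. The part of these cell types in the channel gene levels was not tested.

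Markers of other cells were low in most libraries, with exceptions at both ages. Endothelial markers (5 genes) were at or below 129 CPM in every library, interneuron markers (6 genes) at or below 141 and oligodendrocyte lineage markers (4 genes) at or below 441. The library at 441 was red replicate 5 of E16, which the study left out, with the highest channel gene sum of its group (3301 CPM) and 8803 genes detected. The next highest library had 151 CPM of these markers. Microglia markers (6 genes, P2ry12 at 0 throughout) averaged 47.2 CPM in yellow cells of E13 (0 to 156) and at most 11.8 in the other groups. Cajal-Retzius markers (4 genes) were at 142 to 501 CPM in yellow cells of E13, 19.7 to 278 in green and 24.4 to 582 in red. Hemoglobin and other blood genes (5 genes) were at 49484, 13180 and 10779 CPM in red replicates 1, 2 and 4 of E13. In yellow replicates 1 and 4 of E13 they were at 31668 and 44514 CPM, and in green replicate 1 at 4534 CPM. The other E13 libraries kept had at most 725 CPM. At E16 the blood genes were at 3072 CPM in red replicate 1 and 1056 CPM in yellow replicate 5, and at or below 14.8 CPM in the other libraries. Blood reads thus differed with age, and their part in the age comparisons was not tested. Dorsal forebrain genes (Emx1, Emx2 and Lhx2, summed) were present in all 36 libraries, at 52.3 to 567 CPM. Reads outside annotated exons, introns included, were 40.9% of uniquely aligned reads in yellow replicate 2 of E13 and 44.1% in yellow replicate 7 of E16. The group medians were 18.4% to 24.2%.

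**Figure D2:**
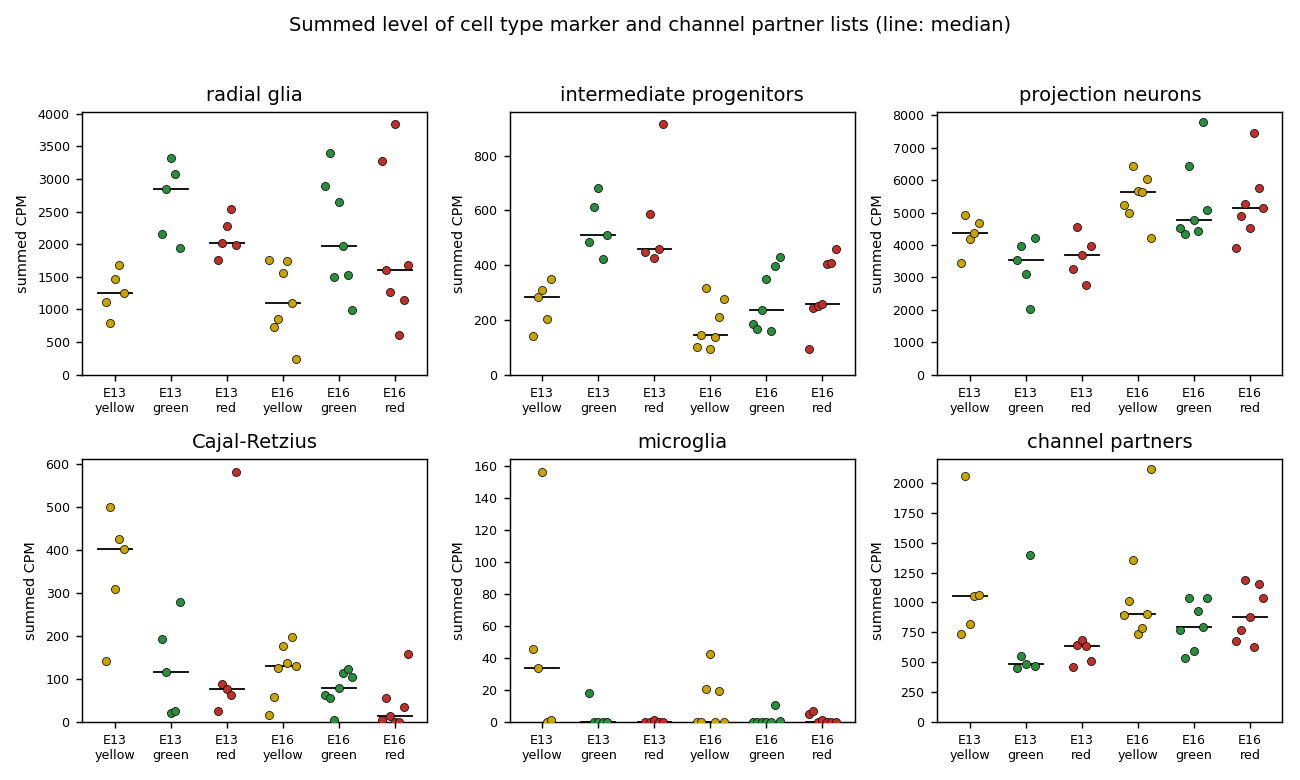
Summed level (vertical axes, CPM) of 5 cell type marker lists and of the channel partner list in each library kept, by age and color, with 1 point per library and the median as a line. Radial glia and intermediate progenitor markers of E13 are higher in all 10 singly colored libraries than in the 5 yellow ones.

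The first comparison asked how the channel genes differ between E13 and E16 within a color. In green cells, 50 of 62 genes had a positive fitted log2 fold change (E16 over E13) and the median was 1.54, while 50.9% of all genes tested were positive with a median of 0.03. In red cells, 42 of 62 were positive with a median of 1.26, against 49.9% of all genes and a median of 0.00. In yellow cells, 30 of 62 were positive with a median of -0.08, against 46.9% and -0.06. The medians of the channel genes lay above those of all genes in green and red, and beside it in yellow. Without the 7 libraries that the study left out, the yellow median was 0.53 with 36 of 62 positive, and the red median 1.01 with 42 positive.

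Few single genes passed the test (edgeR quasi-likelihood test, Benjamini-Hochberg adjusted p under 0.05). In green cells 1 of 62 passed, where 1.35% of all genes did. In red cells 0 of 62 passed, where 0.314% of all genes did, and in yellow cells 0 of 62, where 0.148% did. At an unadjusted edgeR p under 0.05, 20 genes passed in green cells (17 higher at E16, 3 lower), or 32.3% of the channel genes against 15.3% of all genes. In red cells 16 passed (13 higher, 3 lower), or 25.8% against 11.3%, and in yellow cells 4 (3 higher, 1 lower), or 6.45% against 8.08%. With 1 replicate left out, the yellow count ran from 3 (without replicate 5 of E13) to 8 (without replicate 1 of E16). The share over all genes was not computed for these fits. DESeq2 on the same libraries called 7 genes in green (6.15% of all genes), 1 in red (2.67%) and 0 in yellow (1.66%). In green cells edgeR called 3 channel genes when replicate 2 of E13 was left out (120 of all 11472 genes) and 2 without replicate 6 (107 of 11472). The p-values measure the spread between embryos, and of reads amplified by PCR without molecular identifiers, so floors of 3 counts cover counting error only.

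Cacna1e was the gene that passed in green cells. It was at 4.45 CPM in green replicate 1 of E13 and had no read in the other 4 green libraries of that age. All 7 green libraries of E16 were higher, from 17.5 through a median of 64.8 to 198 CPM. The fitted log2 fold change was 6.64 ± 1.34 (SE; edgeR adjusted p = 0.02303). The gene was not absent from other cells at E13: yellow libraries had 37.8, 94.0, 30.0, 35.9 and 36.0 CPM, and red libraries 20.3, 19.5, 2.57, 0 and 136. In yellow cells of E16 it lay at 39.7 to 147 CPM and in red cells at 0 to 127 CPM, overlapping with E13 in both. The overlap in yellow rests on replicate 2 of E13 (94.0 CPM), a library that the study left out, since the other 4 yellow libraries of E13 were at or below 37.8 CPM. Cacna1e (ENSMUSG00000004110.16) spans chr1:154390731-154884501 on the minus strand of GRCm38.

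Kcnn3 was the other channel gene whose green libraries did not overlap between the ages, as was the case, with higher E16 values, for 1.64% of all genes. Green cells of E13 had 49.0, 117, 96.1, 68.8 and 0 CPM, and those of E16 174 to 493 CPM with a median of 243. Its log2 fold change of 2.08 ± 0.78 had an edgeR adjusted p of 0.1991. Yellow cells of E13 ranged from 17.9 to 899 CPM and those of E16 from 17.8 to 1761 CPM, which overlap.

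The sodium channel pores shared a direction in both singly colored groups. All 5 had a positive fold change in green (median 1.90) and in red (median 3.25), and 2 of 5 in yellow (median -0.07). A shared direction was not particular to them. The 3 two-pore-domain genes and the 2 sodium channel beta subunits were positive in all 3 colors. Scn2a, which encodes Nav1.2 of early axons, had log2 fold changes of 3.31 ± 1.22 in green (edgeR adjusted p = 0.1934), 3.25 ± 1.38 in red (0.3678) and 1.18 ± 0.93 in yellow (0.9097). Scn3a, the embryonic Nav1.3, had 1.42 ± 0.71 in green, 1.55 ± 0.73 in red and -0.20 ± 0.47 in yellow. Scn8a had 1.90 ± 0.78, 1.94 ± 0.93 and -0.07 ± 0.57 in the same order. Scn1a, the Nav1.1 gene of mature interneurons and other neurons, was near the limit of detection, with a median at or below 0.73 CPM in each of the 6 groups. Its values came from a few libraries, such as yellow replicate 7 of E16 at 306 CPM.

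Summed over the 5 sodium pore genes, green cells had 82.6 ± 56.0 CPM at E13 and 294 ± 117 at E16, without overlap. The same held in green cells for the calcium channel pores (41.6 ± 29.7 against 196 ± 86.3 CPM), the calcium- and sodium-activated potassium pores (160 ± 98.5 against 547 ± 176) and the voltage-gated potassium pores (174 ± 67.0 against 393 ± 76.8). The calcium pores include Cacna1e and the activated potassium pores Kcnn3, genes without overlap in green on their own. Class sums without these genes were not computed. Class means were higher at E16 in 11 of 12 classes in green, 11 of 12 in red and 9 of 12 in yellow, and every class overlapped between the ages in red and in yellow. In red the auxiliary subunits of potassium channels had the lower mean at E16 (62.2 ± 57.0 at E13, 27.1 ± 15.2 at E16).

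**Figure D3:**
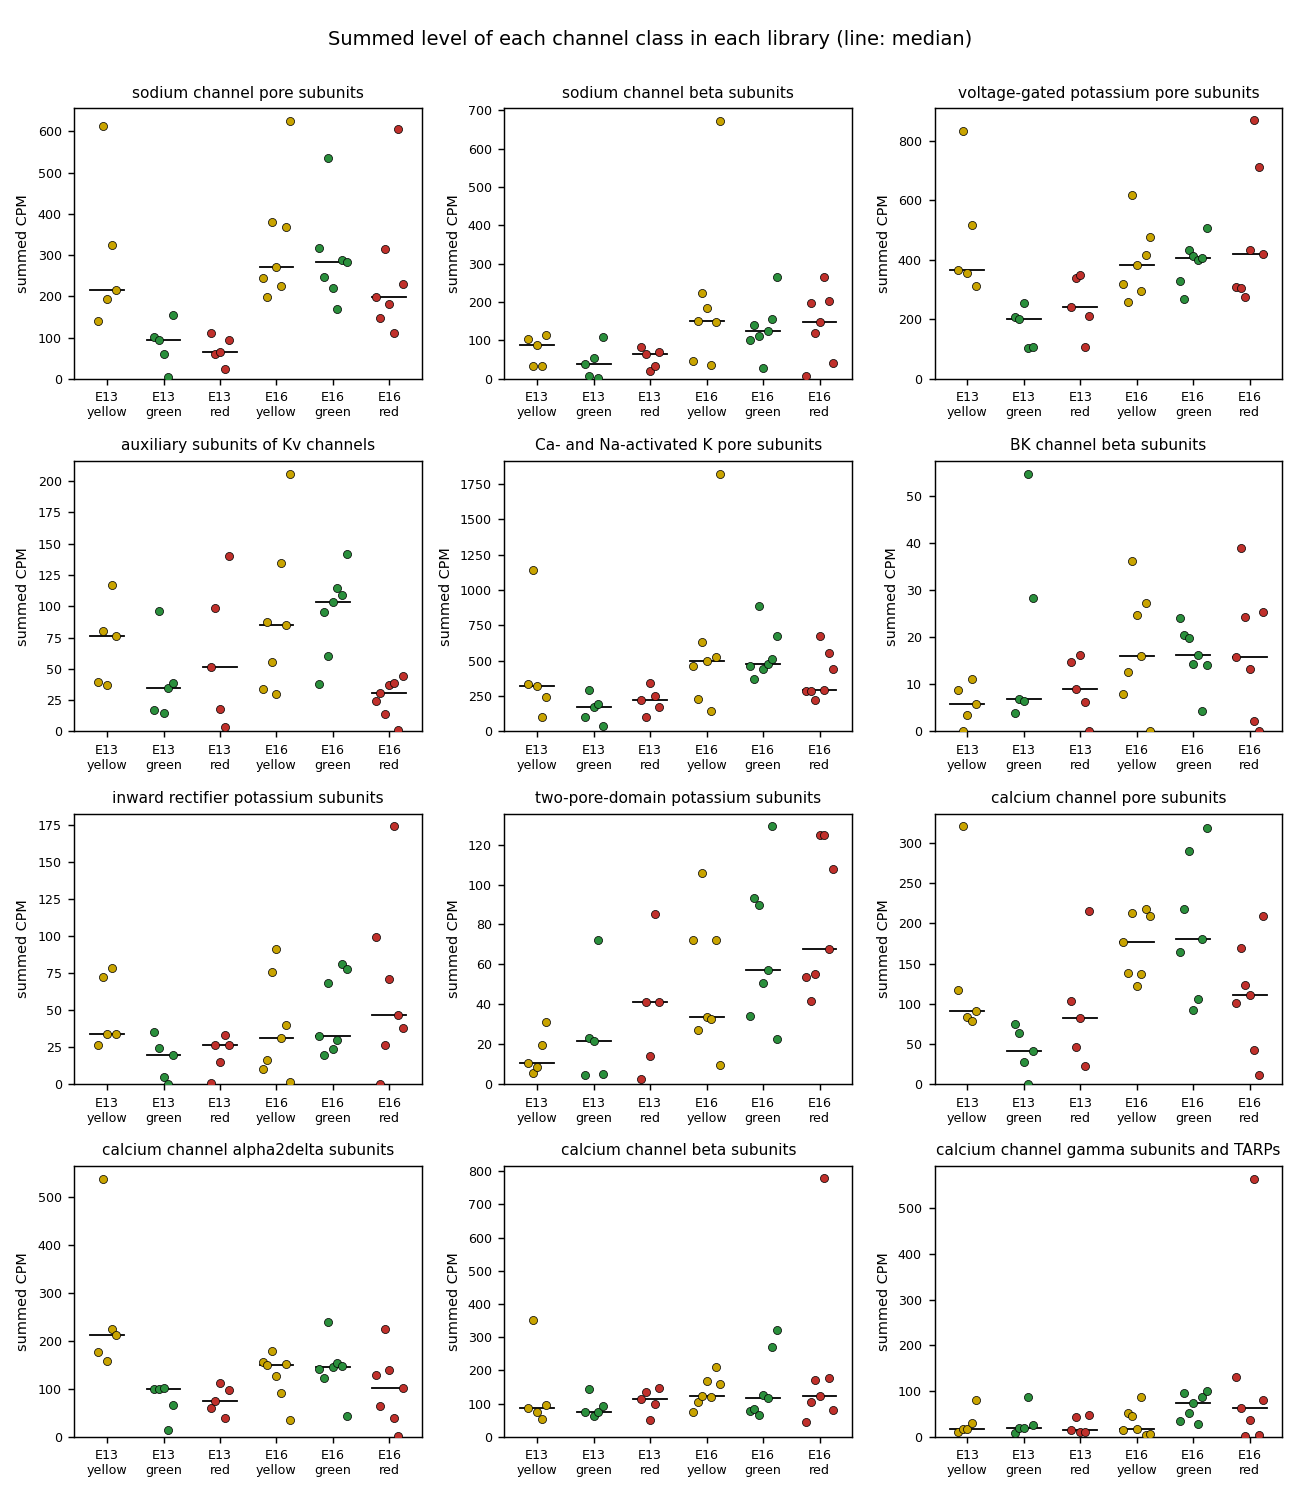
Summed level (vertical axes, CPM) of each of the 12 channel classes in each library kept, by age and color, with 1 point per library and the median as a line. In green cells the sodium, calcium, voltage-gated potassium and calcium- and sodium-activated potassium pore classes of E16 lie above those of E13 without overlap.

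Among the voltage-gated potassium channel genes, the A-type channel Kcnd3 had a log2 fold change (E16 over E13) of 2.39 ± 0.87 in red (edgeR adjusted p = 0.2809). Red replicate 5 of E16 held 467 CPM of it and the other 6 red libraries 28.3 to 147, and without replicate 5 the value was 1.38 ± 0.70 (edgeR adjusted p = 0.4358). Kcnv1 and Kcnc2 had no read in green cells of E13 and were at least 23.4-fold and 35.3-fold higher at E16, as a bound set by 3 counts over the group. Without green replicate 3 of E16 the bound of Kcnc2 was 13.04-fold. Kcnip2, Scn1a and Kcnab1 had none in red cells of E13 and were at least 47.3-fold, 15.5-fold and 10.8-fold higher at E16. Each of these rests on 1 library, and without red replicates 5, 2 and 4 of E16, in this order, the bounds were 10.0-fold, 3.88-fold and 2.06-fold. Kcnd1, another A-type channel, had -4.19 ± 1.71 in yellow, and Kcnh2 -1.83 ± 1.55 and Kcng1 -0.86 ± 1.69 in green. Kcnh8 had -3.95 ± 1.90 in red and -3.26 in yellow. In yellow cells the largest values among genes with a small p were 7.09 for Kcnab1 and 5.95 for Scn1a, neither past the threshold. Both genes were by far highest in yellow replicate 7 of E16, which the study left out. It held 206 CPM of Kcnab1 (next library 13.6) and 306 CPM of Scn1a (next library 7.53). In green cells Kcnab1 had 6.28 ± 2.01 (edgeR adjusted p = 0.1422). Kcnip1, a Kv4 auxiliary subunit, had -2.13 ± 1.48 in red.

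The small-conductance channel Kcnn2 was positive in all 3 colors, at 2.13 ± 0.63 in green (edgeR adjusted p = 0.1139), 0.57 ± 0.91 in red and 1.67 ± 0.69 in yellow. The sodium-activated channels had negative values in some groups. Kcnt2 had -5.21 ± 1.88 in red (adjusted p = 0.2776) and Kcnt1 -3.12 in yellow. Among inward rectifiers, the G protein-gated Kcnj5 was not detected in the 7 green or the 7 red libraries of E16, at least 42.3-fold and 39.9-fold below E13. At E13 it had reads in 2 of 5 libraries of each of these colors, and without replicate 6 of E13 the bounds were 4.11-fold and 20.1-fold. The ATP-sensitive Kcnj11 was at least 19.9-fold higher in green at E16. Kcnj9 was at least 4.03-fold lower in green, from 8 counts in replicate 1 of E13 alone, and at least 12.6-fold higher in red (7.22-fold without replicate 4 of E16), and had a log2 fold change of -3.65 in yellow.

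Calcium channel genes other than Cacna1e overlapped between the ages. Cacna1b had 2.65 ± 1.24 in green, 2.27 ± 1.43 in red and 0.53 ± 0.95 in yellow. Cacna1c, the L-type pore Cav1.2, had 2.54 ± 1.26 in green (edgeR adjusted p = 0.3554), 0.75 ± 1.36 in red and -1.10 ± 1.04 in yellow. The beta subunit Cacnb1 had 3.75 ± 1.39 in red (edgeR adjusted p = 0.2931) and was the gene that DESeq2 called there. Its 7 red libraries of E16 ran from 8.46 to 640 CPM with a median of 49.4, and those of E13 from 0 to 46.9. The 640 CPM came from replicate 5, and without it the highest was 115 CPM and the fold change 2.07 ± 1.19 (edgeR adjusted p = 0.5045). Cacnb3 was nearly level, at 0.74 ± 0.50, -0.16 ± 0.54 and -0.17 ± 0.56 in green, red and yellow. Cacna2d2 was at least 9.57-fold lower in green at E16 (3.84-fold without replicate 3 of E13) and had -4.38 ± 1.94 in red, and Cacna2d1 had 0.99 ± 0.53, 0.40 ± 0.93 and -0.94 ± 0.45.

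**Figure D4:**
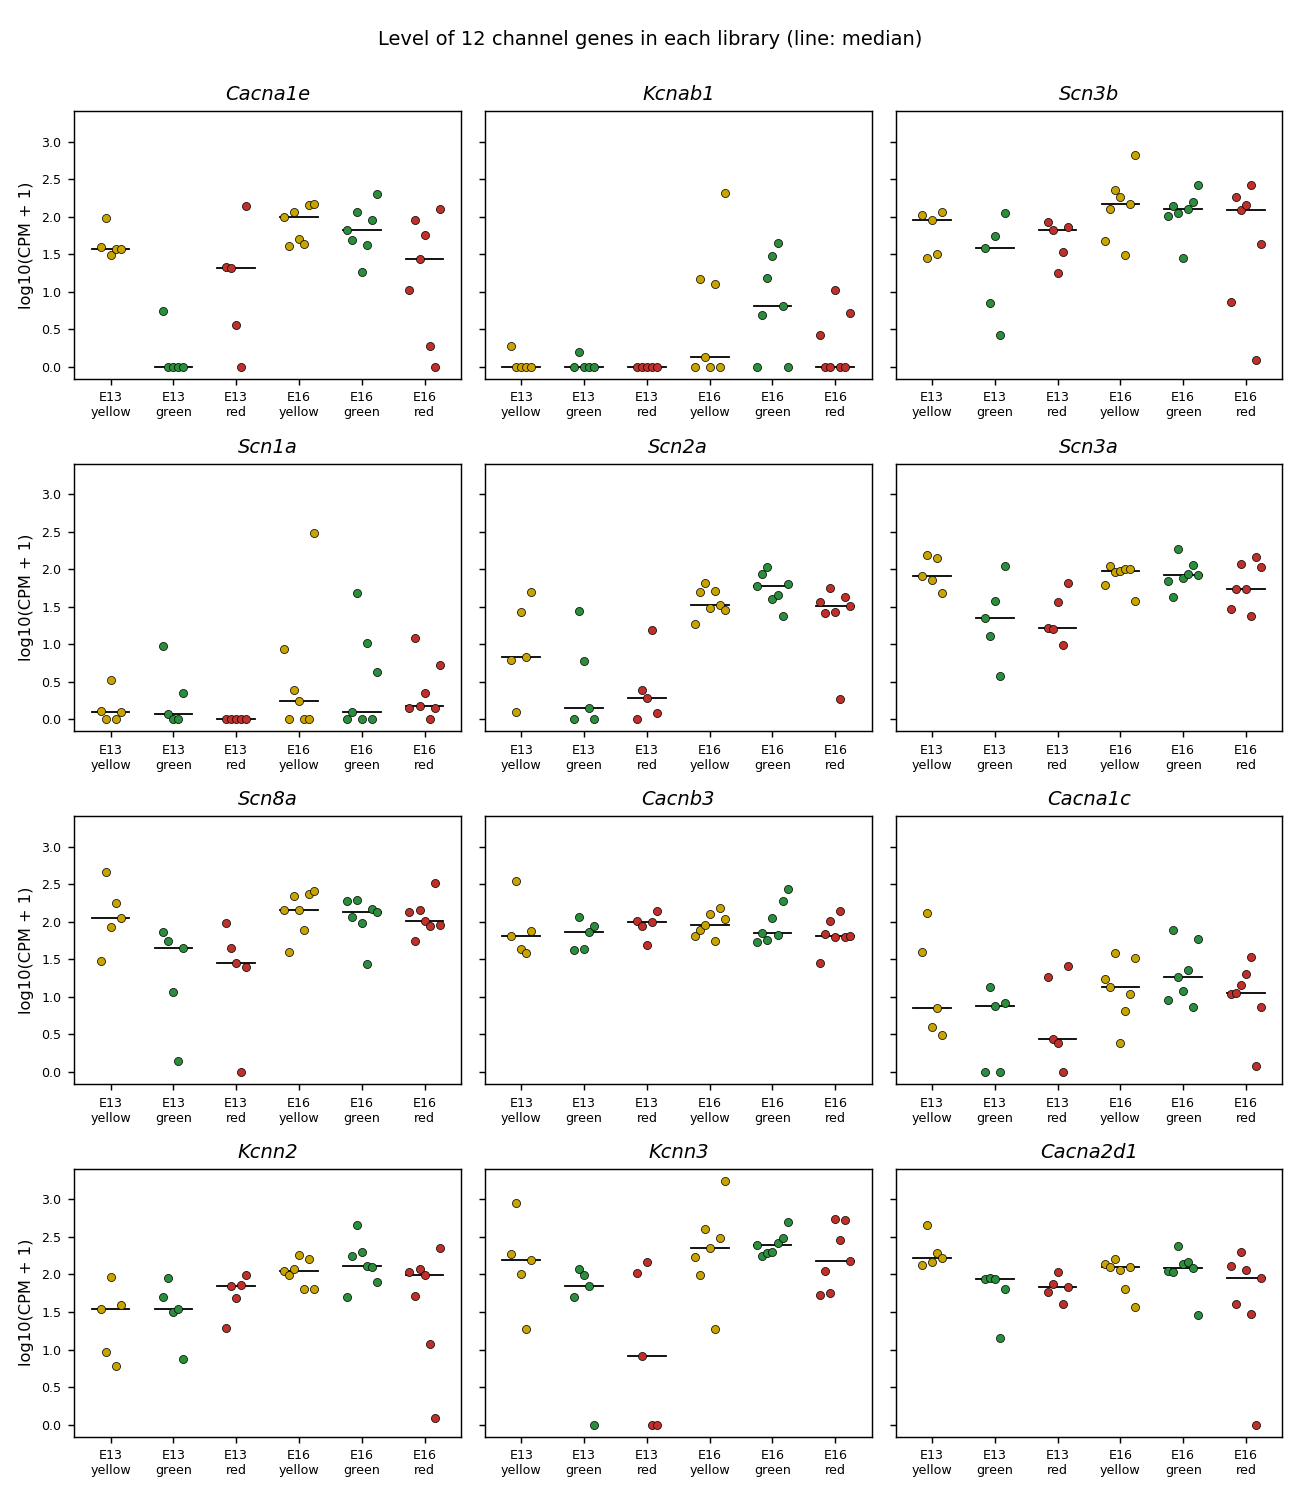
Level of 12 channel genes in each library kept, by age and color, as log10(CPM + 1) on a common vertical axis, with 1 point per library and the median as a line. Cacna1e is at 0 in 4 of 5 green libraries of E13 and above 17 CPM in all 7 of E16, whereas Scn1a and Kcnab1 are near 0 in most libraries of either age.

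To use all colors without counting an embryo more than once, the 3 libraries of each complete embryo were summed, which gave 4 profiles at E13 and 7 at E16. In this comparison 2 of 62 genes passed, Kcnab1 among them, where 3.61% of all genes did. At an unadjusted edgeR p under 0.05, 18 genes passed (17 higher, 1 lower), or 29% against 17.6% of all genes, and DESeq2 called 11 (8.41% of all genes). Positive fold changes were found for 45 of 62 genes, with a median of 0.78 against 0.06 over all genes.

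Kcnab1 had 0.321, 0.240, 0 and 0 CPM in the E13 embryos and 0.564, 3.36, 5.19, 7.33, 19.6, 1.80 and 71.5 CPM in the E16 embryos, a log2 fold change of 6.87 ± 1.72 (edgeR adjusted p = 0.04105). The ages did not overlap, but the gene was low. The count filter averaged over all libraries kept, and Kcnab1 (mean count 24.7) passed it through its E16 reads. The E16 embryos held 4 to 527 reads each and the E13 embryos 0 to 3. A gene this low at E13 could enter the set only by being higher at E16. The call and the separation are therefore not independent of that selection. The E13 levels of Kcnab1 rest on few reads, and in single libraries it reached over 100 CPM only in yellow replicate 7 of E16 (206 CPM). No channel gene passed when any 1 of the 4 embryos of E13, or embryo 3 or 5 of E16, was left out. Without embryo 1 of E16 Kcnab1 alone passed. Without embryo 4 Kcnab1 did not pass, and the 1 channel gene that did was lower at E16. Without the 7 libraries that the study left out, 2 channel genes passed, neither of them Kcnab1.

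Scn2a did not overlap either, with 1.93, 11.7, 16 and 16.9 CPM at E13 and 33.3, 54.9, 76.7, 28.7, 31.1, 32.5 and 47.9 CPM at E16. Its fold change of 2.05 ± 0.56 had an adjusted p of 0.06192 in edgeR. Kcnab1 and Scn2a were among 3 of 62 channel genes without overlap and with higher E16 values, where 2.16% of all genes were so. Kcnn2 had 1.32 ± 0.36 (edgeR adjusted p = 0.06172), and Scn3b 1.48 ± 0.51 (adjusted p = 0.1343). On the lower side the fitted values were -3.22 ± 1.41 for Cacna2d2 (adjusted p = 0.2493), -2.44 for Kcnh2, -2.26 for Kcnj9, -1.79 for Kcnh8 and -1.29 for Kcnb2, a delayed rectifier.

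Some cell type markers differed between the ages in the same profiles. Of 7 radial glia markers tested, 5 passed as lower at E16, while 2 had positive fold changes (median log2 fold change of the 7: -1.67). All 7 had an unadjusted edgeR p under 0.05, so the list was split in direction. Of 8 projection neuron markers, 5 were positive, of which 3 passed (median 0.65). Summed radial glia levels overlapped between the ages in each color. Their means at E13 and E16 were 2666 and 2131 CPM in green, 2116 and 1916 in red and 1258 and 1141 in yellow. In single colors the median log2 fold changes of radial glia markers were -1.65 in yellow, -1.87 in green and -1.77 in red. Those of projection neuron markers were 0.42, 0.73 and 0.82. The channel genes had medians of -0.08, 1.54 and 1.26 in the same colors. The part of the marker shift in the channel gene levels was not tested.

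Genes whose products work with these channels (20 listed, 17 tested) include the scaffold ankyrins, the clustering proteins of the axon initial segment and node, Hcn pacemaker channels, the NALCN complex and Rest, a repressor of neuronal channel genes. Of these, 13 were positive in the summed embryos, with a median of 1.16, and 12, 14 and 14 were positive in yellow, green and red. In the summed embryos 1 of the 17 passed as higher and 1 as lower at E16, where 3.61% of all genes passed. Ank3, which encodes ankyrin-G and anchors sodium channels at the axon initial segment, was higher (0.94 ± 0.24, edgeR adjusted p = 0.04481). Cntnap2, which clusters Shaker-type potassium channels at the juxtaparanode, was lower (-2.39 ± 0.52, edgeR adjusted p = 0.02133). These calls were not examined with 1 embryo left out. None passed in a single color.

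The second comparison asked whether singly colored cells differ from yellow cells of the same embryos. It shares its E13 libraries with the age comparisons, so its values are given side by side and not as a second line of support. At E13, 50 of 62 channel genes were lower in singly colored cells, with a median log2 fold change (mean of green and red over yellow) of -2.49, where 45.1% of all genes were positive and the median was -0.12. Without the embryo as a block the median was -1.45, and without the 7 libraries that the study left out it was -2.42. No channel gene passed the edgeR test, and 0.00872% of all genes did. At an unadjusted edgeR p under 0.05 there were 13 channel genes, all 13 lower, or 21% against 7.01% of all genes. Without replicate 4 of E13 there were 6, with 46 of 62 genes lower and a median of -1.65. DESeq2 called 9 channel genes, all lower, where it called 4.56% of all genes.

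Cacna2d1 showed the clearest separation. At E13, yellow cells had 133, 458, 143, 193 and 167 CPM. Green cells had 85.1, 89.7, 86.3, 13.3 and 63.5 CPM, and red cells 58.1, 74.0, 109, 39.6 and 66.7 CPM, so all 10 singly colored libraries lay below all 5 yellow ones. This was so for 0.288% of all genes, and for no other channel gene. The log2 fold change was -1.91 ± 0.44 (edgeR adjusted p = 0.3191). At E16 it was -0.14 ± 0.65, with 35.7 to 161 CPM in yellow, 28.1 to 235 in green and 0 to 200 in red. Summed with Cacna2d2 and Cacna2d3, the alpha2delta class was at 0.292 times the yellow level at E13, the only class without overlap.

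Sodium pores were also lower in singly colored cells at E13, at 0.258 times the summed yellow level with overlap between libraries, and 5 of 5 had a negative fold change. Scn3a had 79.4, 155, 69.8, 142 and 47.2 CPM in yellow cells, 21.3, 11.9, 37.0, 2.81 and 108 in green and 15.7, 15.2, 35.5, 8.80 and 64.8 in red. All but green and red replicate 6 were below the lowest yellow library. Its fold change was -2.56 ± 0.79 (edgeR adjusted p = 0.5035). Scn8a was at 29.1 to 458 CPM in yellow, 0.402 to 71.7 in green and 0 to 96.2 in red (-3.37 ± 1.29, edgeR adjusted p = 0.656). Scn1a and Scn2a had -1.04 ± 1.28 and -5.06 ± 2.83.

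Of the other genes with the smallest p, Kcnn3 had -4.62 ± 1.64, Cacna1e -4.64 ± 1.74 and Kcnv1, a silent modifier of Kv2 channels, -7.52. Cacna1b had -4.95 ± 1.98 and Cacna1c -3.14 ± 1.71, while Cacnb3 had -0.17 ± 0.55. On the higher side, the T-type calcium channel Cacna1g had 5.67 ± 2.68 (edgeR adjusted p = 0.7061), Kcnmb4 1.88, Cacng8 1.53, Kcnq5 1.48 and Kcnip3 0.80. Class sums were lower in singly colored cells in 10 of 12 classes. The 2 exceptions were the two-pore-domain channels (31.0 against 15.2 CPM) and the single BK beta subunit gene (14.7 against 5.83 CPM).

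In the same fit, all 7 radial glia markers tested were positive (median 0.94) and all 4 intermediate progenitor markers (1.20), while 0 of 8 projection neuron markers were (-0.45) and 0 of 2 tested Cajal-Retzius markers (-2.20). None of these passed the edgeR test. Their part in the channel gene levels was not tested. Of 17 channel partners, 4 were positive (median -1.0).

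At E16 no such shift was found between the colors. Of 62 channel genes 39 were lower and 23 higher in singly colored cells, and the median was -0.16 against 0.00 over all genes. No channel gene passed the edgeR test, and 0% of all genes did. A single channel gene, Kcnt2 (-2.91), had an unadjusted edgeR p under 0.05, or 1.61% against 2.26% of all genes (0 to 3 channel genes when 1 embryo was left out), and DESeq2 called 1, Kcnj5, where it called 0.732% of all genes. Kcnj5 was at least 152-fold lower, from reads in 1 of 7 yellow libraries (71.0 CPM in replicate 4). The other genes with the smallest p were Kcnd1 (4.45), Kcnn1 (2.81), Cacna1g (2.38), Kcnj10 (2.22) and Kcnk10 (1.25) on the higher side and Kcnq5 (-3.18), Cacna2d2 (-3.15) and Cacnb4 (-1.81) on the lower. Scn2a, Scn3a and Scn8a had 0.11 ± 0.62, -0.13 ± 0.44 and -0.16 ± 0.39. Of the marker lists at E16, all 7 radial glia markers tested were positive (median 1.02) and 3 of 4 intermediate progenitor markers (0.62). Positive values were found for 3 of 8 projection neuron markers (-0.09) and 0 of 2 tested Cajal-Retzius markers (-1.90). The channel genes had a median of -0.16, and the part of the marker lists in it was not tested.

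The difference between the ages was tested itself, as the singly colored against yellow contrast of E16 minus that of E13. Positive values were found for 52 of 62 channel genes, with a median of 2.21, against 55.6% of all genes and a median of 0.16. None passed the edgeR test, and 0% of all genes did. At an unadjusted edgeR p under 0.05 there were 13 channel genes, all positive, or 21% against 4.14% of all genes, and DESeq2 called 8 (7 positive, 1 negative), where it called 1.91%. Scn3a had 2.42 ± 0.82, Scn8a 3.19 ± 1.18, Kcnn3 4.39 ± 1.63, Kcnv1 6.56 and Kcnd1 9.64, and on the other side were Kcnq5 (-4.67), Kcnj5 (-3.29), Cacna1g (-3.25), Kcnt2 (-2.95) and Kcnmb4 (-2.24). Their edgeR adjusted p was 1. Single genes therefore did not pass a test of the difference, while their directions were mostly shared. Among the markers, 7 of 8 projection neuron genes were positive (median 0.46) and 3 of 7 radial glia genes (-0.02). For intermediate progenitors it was 1 of 4 (-0.52) and for Cajal-Retzius cells 1 of 2 (0.41). The part of these lists in the difference was not tested.

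**Figure D5:**
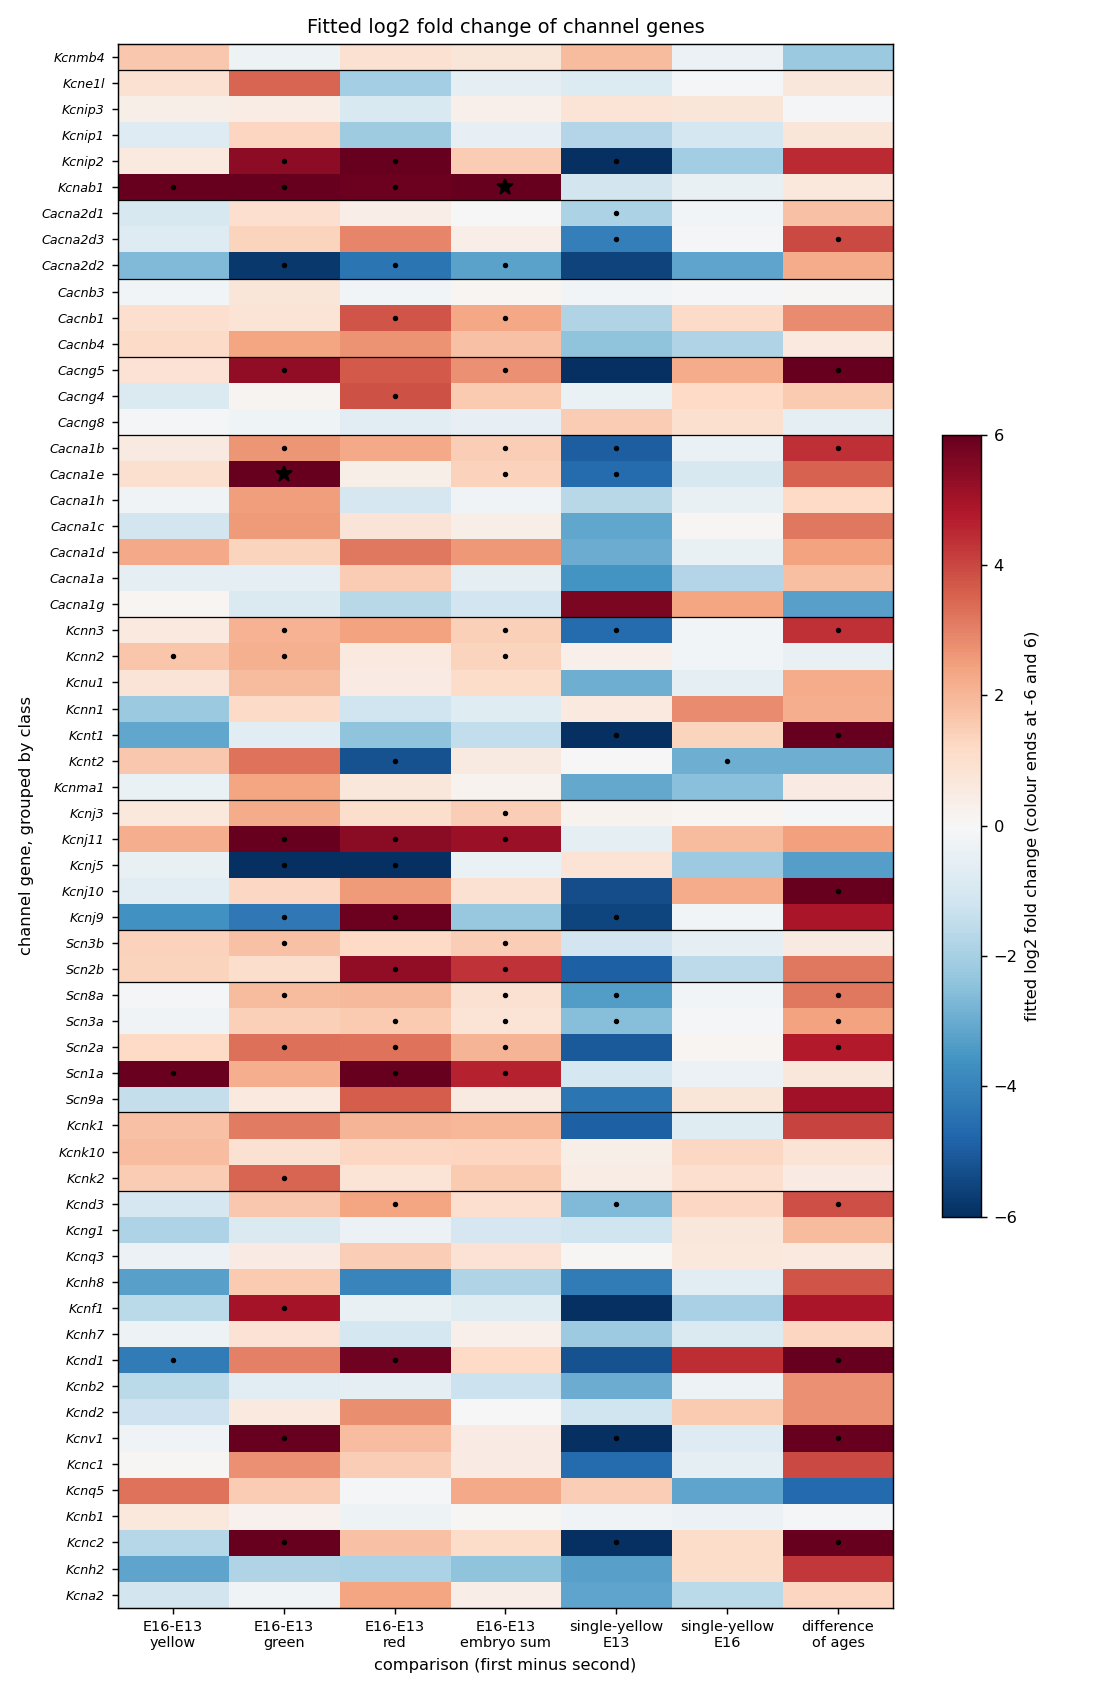
Fitted log2 fold change of 60 of the 62 channel genes (rows, grouped by class with lines between classes) in the 7 comparisons (columns). Red is higher in the first group, blue is lower, and the color scale ends at -6 and 6. Stars mark an edgeR adjusted p under 0.05 and dots an unadjusted p under 0.05. Red prevails in the green (50 of 62) and red (42 of 62) age comparisons and blue in singly colored against yellow cells at E13 (50 of 62).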

How the data were processed

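The channel genes, gene lists and comparisons were chosen with earlier results of these data known. Libraries were made from sorted cells by Smart-Seq2, which keeps no strand and has no molecular identifiers. Per the submitters' processing notes and the study's methods, the authors combined technical replicates with SAMtools 1.8, converted reads with bedtools 2.26.0, aligned them with STAR 2.5.0c against GRCm38 and Gencode M16, retained uniquely placed reads and deposited whole-number counts per gene, not normalized. The unstranded column was used, since in the median library each stranded column summed to 54.6% or 53.0% of it. Reads of genes that share exons or overlap on the opposite strand therefore cannot be told apart, and 22 of the 62 channel genes share exonic bases with another gene.

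Symbols, classes of coding genes and exon lengths come from a Gencode annotation of the same build, to which 53274 of 53379 genes were matched. Libraries with under 40% uniquely aligned reads were left out (yellow replicate 3, green 5 and red 5 of E13), and the 36 kept had 50.5% to 66.0%. Genes with a mean count of 10 or more over these entered edgeR's quasi-likelihood test (version 4.0.16, R 4.3.3) with TMM normalization, with Benjamini-Hochberg adjustment and a threshold of 0.05. E16 and E13 were compared within a color without a block, and over complete embryos with counts summed. Singly colored and yellow cells were compared with the embryo as a block, after the study's own model, where single individuals were replicates. Libraries of 1 age with the same replicate number were taken to be the colors of 1 embryo. Deviations from the group means of same-numbered libraries had a mean correlation of 0.0439 at E13 (13 pairs) and 0.0294 at E16 (21 pairs). Between different numbers it was -0.0092 and -0.0036. The correlation was over 0.1 in 1 same-numbered pair at E13 and 0 at E16, so these values do little to settle the pairing.

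Alternatives were DESeq2 1.42.0 (which gave no adjusted p for 6, 7, 10 and 1 channel genes in the yellow, green, red and summed age comparisons), RLE size factors, other count filters, other sets of libraries, no block, and leaving out each replicate. Genes were named by rule: Scn1a, Scn2a, Scn3a, Scn8a and Cacna1c, every channel gene past the threshold, the 5 higher and 5 lower with the smallest p per comparison, and the highest RPKM in each class. Genes without overlap between groups, and those just outside the count threshold, were added after their values were seen. CPM is the count scaled to the library's gene counts. Some genes that enter the fits and counts are not reported here by name. Parental direction of the colors was not analysed here.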

Additional observations from a re-analysis of the deposited data

Results flagged for a closer look

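Levels of 7 channel genes named in every case or past the threshold, and the summed level of all 62, were searched for a library far from the rest of its group of 5 or 7. Of 46 groups with more than 1 distinct value, 16 had one. The rule compares the gap to the nearest library with the range of the group. It flags about 1 in 20 groups by chance only if levels follow a normal distribution. A group with reads in a single library is always flagged, however low the level, as for Cacna1e and Kcnab1 in green cells of E13. The 1 in 20 is therefore no benchmark here, and no excess over chance can be read from the 16 groups. The groups are also not independent, since many genes were read from the same libraries.

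Yellow replicate 2 of E13 stood apart in the summed level (4010 CPM), Cacna1c (129 CPM) and Cacna1e (94.0 CPM). It is one of the libraries that the study left out, with 9655 genes detected and 40.9% of uniquely aligned reads outside annotated exons. Yellow replicate 7 of E16, left out by the study as well, stood apart in Scn1a (306 CPM) and Kcnab1 (206 CPM). It had 7858 genes detected and 44.1% of reads outside exons. Red replicate 6 of E16, also left out by the study, held 327 CPM of Scn8a. The part of these library properties in the levels was not tested.

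Other libraries stood apart in 1 or 2 genes. At E16, Scn1a was at 47.0 CPM in green replicate 3 and at 11.1 CPM in red replicate 2. At E13, Cacna1e was at 136 CPM in red replicate 6 and at 4.45 CPM in green replicate 1, against 0 in the remaining 4 of its color. Scn2a was at 26.9 CPM in green replicate 2 and 14.7 CPM in red replicate 4. Low levels that stood apart from libraries near 0 were those of Scn1a in green replicate 1 (8.41 CPM) and yellow replicate 4 (2.31 CPM), and of Kcnab1 in green replicate 2 (0.576 CPM) and yellow replicate 1 (0.872 CPM).

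Among the libraries left out for under 40% uniquely aligned reads, green replicate 5 of E13 had a summed channel gene level of 2863 CPM, above the 5 green libraries kept (636 to 1073 CPM).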

How the results depend on the processing

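With DESeq2 in place of edgeR, 7 channel genes were called in green (1 shared with edgeR), 1 in red, 11 in the summed embryos (2 shared), 9 in singly colored against yellow cells at E13, 1 at E16 and 8 in the difference of ages. Counting every embryo with a kept library gave 6 calls in the summed embryos, where 521 of 11472 genes passed. No count filter gave 1 in the difference of ages, where 26 of 27118 genes passed. Leaving out each replicate gave 1 to 3 calls in green, where 76 to 205 of 11472 genes passed. In the summed embryos it gave 0 to 2, where 199 to 605 of 11472 genes passed, and the 1 call without embryo 4 of E16 was lower at E16. Without the replicate block the 3 comparisons of singly colored with yellow cells had 0 calls, as with it. The other alternatives stayed within 1.5 times the number of calls reported, and none of the named calls changed direction. Cacna1e passed in green in 18 of 18 alternatives (log2 fold change 6.24 to 11.06) and Kcnab1 in 9 of 18 in the summed embryos (highest adjusted p = 0.1523).

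Over the alternatives that tested all 62 channel genes, positive fold changes were found for 47 to 52 in green, 40 to 46 in red, 28 to 36 in yellow and 41 to 45 in the summed embryos, and negative ones for 46 to 54 in singly colored against yellow cells at E13. With the count filter set within each comparison the numbers were 44 of 52, 37 of 55 and 27 of 58 positive in green, red and yellow and 43 of 55 negative at E13. The yellow median ran from -0.20 to 0.53. With 4 complete embryos at E13 and 14 channel genes detected in fewer than 18 libraries, single genes carry wide errors.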
